A study of Mus musculus with 48 samples.

Results

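The class 3 semaphorins and 3 plexins were described in 48 RNA-seq libraries from the mouse heart and diaphragm. The 10 genes, Sema3a to Sema3g, Plxna1, Plxna4 and Plxnd1, were found by symbol among 54752 Ensembl genes, of which 54723 had a symbol, and all 10 were present. They were chosen by name with the values of these libraries known, so their levels across cell populations are given as a description without a test.

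All mice were male C57BL/6 Prox1-eGFP knock-in mice, in which the endogenous Prox1 promoter drives eGFP from an IRES placed after the Prox1 stop codon. Mice in the ctrl group carried minipumps with bovine serum albumin, mice in the angII group received angiotensin II with the same albumin, and mice in the angII+VEGFC group received angiotensin II together with VEGFCc156s, a VEGFC mutant that acts through VEGFR3. Ages per the labels ran from 8 to 16 months, and tissue was taken 5 to 6 weeks after implantation. The 13 mice gave 4 cell populations, which were lymphatic endothelial cells of the heart (heart LEC), lymphatic endothelial cells of the diaphragm (diaphragm LEC), blood endothelial cells of the heart (heart BEC) and cardiomyocytes. Each population had 4 ctrl, 5 angII and 3 angII+VEGFC libraries, 1 per mouse. Endothelial cells were sorted as live CD45.2- CD31+ cells, with eGFP separating LECs from BECs, whereas cardiomyocytes were spun down and not sorted. Endothelial libraries were sequenced in batches 1 and 2, and cardiomyocyte libraries in batch 3.

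Class 3 semaphorins are secreted guidance proteins, first known for repelling axons, that also act on endothelial cells. Most of them bind a neuropilin, which holds the ligand while an A-type plexin or plexin D1 carries the signal into the cell, where the plexin acts on small GTPases of the Ras and Rap families. Sema3e is the exception and binds plexin D1 directly. In vessels, Sema3e with plexin D1 patterns growing blood vessels, Sema3a takes part in lymphatic valve formation through neuropilin 1 and plexin A1, and Sema3f and Sema3g bind neuropilin 2, which lymphatic endothelium carries.

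Values are in TPM, a share of the transcripts of a library corrected for gene length, so levels of different genes can be set side by side but the sequencing depth is unknown. TPM summed to 997657 to 999929 per library, and library complexity was measured as genes detected, meaning those reaching 1 TPM. Heart LEC libraries had 16131 to 25896 of them, diaphragm LEC libraries 12924 to 23691, heart BEC libraries 15076 to 21913 and cardiomyocyte libraries 13020 to 19306. The sorted populations carried their defining markers. The summed TPM of 6 lymphatic markers had medians of 21265 for heart LECs, 33952 for diaphragm LECs and 362 for heart BECs. The summed TPM of 7 blood endothelial markers had medians of 20146 for heart BECs, 3266 for heart LECs and 2105 for diaphragm LECs, so no LEC library was without blood endothelial transcripts. The unsorted cardiomyocytes held 7 cardiomyocyte markers at a median sum of 11879 TPM, and also blood endothelial markers at 3195 and fibroblast markers at 4118. The diaphragm LEC library of ctrl mouse 9 stood apart, with 351 TPM over 6 Schwann and neural markers and 681 TPM over 8 pericyte and smooth muscle markers, against medians of 4.97 and 77.0 TPM in its population. With bulk libraries, fewer cells of a type and less RNA per cell cannot be told apart.

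The genes lie on 4 chromosomes of GRCm38. Sema3d (chr5:12383385-12588948), Sema3a (chr5:13125414-13602565), Sema3e (chr5:14025276-14256689) and Sema3c (chr5:17574281-17730268) follow each other on the plus strand of chromosome 5. Sema3b (chr9:107597674-107609229) and Sema3f (chr9:107681500-107710475) share the minus strand of chromosome 9, and Sema3g (chr14:31217860-31230352) lies on the plus strand of chromosome 14. Plxna4 (chr6:32144268-32588192), Plxna1 (chr6:89316314-89362620) and Plxnd1 (chr6:115954811-115995005) lie on the minus strand of chromosome 6. Exons of Plxna1 overlap the antisense gene Gm26811 and exons of Plxna4 overlap the antisense gene Plxna4os3, and the library kit is not described as keeping strand, so reads of these pairs may not be told apart.

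The promoters of the members whose libraries separated heart LECs from heart BECs are shown, since their levels are the base of the next results. RefSeq promoters (GRCm38.p6, 250 bases before to 50 bases after the start) were found for 6 of the 10 members. Sema3d and Sema3a were the members higher in LECs, at chr5:12382916-12383215 and chr5:13396534-13396833, both on the plus strand, and the RefSeq start of Sema3a lies inside its Ensembl gene. Sema3g, at chr14:31217623-31217922 on the plus strand, and Plxnd1, at chr6:115994956-115995255 on the minus strand, were the members higher in BECs. Capitals mark the GC box GGGCGG, or its complement CCGCCC, and the CCAAT box, or its complement ATTGG.
Sema3d: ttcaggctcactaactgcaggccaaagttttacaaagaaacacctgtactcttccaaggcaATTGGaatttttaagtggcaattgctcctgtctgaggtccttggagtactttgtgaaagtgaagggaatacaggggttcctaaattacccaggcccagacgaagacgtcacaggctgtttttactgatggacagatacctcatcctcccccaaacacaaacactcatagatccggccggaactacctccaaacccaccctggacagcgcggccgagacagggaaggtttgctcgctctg
Sema3a: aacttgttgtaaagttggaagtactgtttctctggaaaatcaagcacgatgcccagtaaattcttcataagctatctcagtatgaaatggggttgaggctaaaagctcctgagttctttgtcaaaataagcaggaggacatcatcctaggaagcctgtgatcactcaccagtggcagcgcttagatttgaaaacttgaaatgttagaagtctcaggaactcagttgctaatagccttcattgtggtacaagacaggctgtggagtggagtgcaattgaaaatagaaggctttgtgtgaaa
Sema3g: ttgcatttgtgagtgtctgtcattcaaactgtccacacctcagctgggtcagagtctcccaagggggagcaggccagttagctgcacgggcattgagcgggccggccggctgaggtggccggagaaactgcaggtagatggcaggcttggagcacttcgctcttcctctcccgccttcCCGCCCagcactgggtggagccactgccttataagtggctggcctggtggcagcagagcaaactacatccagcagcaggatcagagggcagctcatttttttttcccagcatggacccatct
Plxnd1: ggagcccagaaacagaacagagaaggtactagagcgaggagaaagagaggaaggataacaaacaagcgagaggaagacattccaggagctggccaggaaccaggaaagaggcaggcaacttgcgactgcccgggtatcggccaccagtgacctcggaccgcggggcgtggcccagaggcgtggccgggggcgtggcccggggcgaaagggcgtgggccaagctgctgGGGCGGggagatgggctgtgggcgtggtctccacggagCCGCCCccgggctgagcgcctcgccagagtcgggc

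The GC box was present in the Sema3g and Plxnd1 windows and absent from the Sema3d and Sema3a windows, and Sema3c and Sema3e also held it. It occurs on either strand in 35.7% of 32851 RefSeq promoters of this length. The CCAAT box, present in 37.4% of all promoters, was found in the Sema3d window, and TATAAA, present in 13.6%, was found in 0 of the 6. GC content was 41.3% for Sema3a, 49.7% for Sema3d, 58.7% for Sema3g and 67% for Plxnd1, beside a median of 52.7% over all promoters. These letters describe the windows and were not tested for a relation with the levels.

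Among the ligands, Sema3f was the most abundant member in each of the 4 populations. This semaphorin is known for repelling endothelial and tumour cells. Its TPM ran from 187 to 404 in LECs of the diaphragm (median 286) and from 70.3 to 297 in those of the heart (median 212), while heart BECs had 59.3 to 149 (median 125) and cardiomyocytes 12.1 to 46.9 (median 18.4). Neighbouring endothelial populations overlapped in that order, and heart BECs did not overlap cardiomyocytes. The cardiomyocytes were not sorted, and their blood endothelial markers summed to a median of 3195 TPM against 20146 in heart BECs. The part of blood endothelial RNA in the cardiomyocyte values of Sema3f, Sema3g and Plxnd1 was not tested. Within mice, Sema3f was higher in heart LECs than in heart BECs in 11 of 12, by 0.82 ± 0.66 on the log2(TPM + 1) scale (mean ± SD).

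Sema3a and Sema3d were the ligands that separated lymphatic from blood endothelium. Sema3a had median TPM of 60.9 in heart LECs (range 45.9 to 102) and 64.0 in diaphragm LECs (32.2 to 133), against 7.25 for heart BECs (4.60 to 14.1) and 2.00 for cardiomyocytes (0.528 to 6.95). Sema3d, which helps to pattern the pulmonary veins, had median TPM of 90.3 in heart LECs (56.4 to 157) and 134 in diaphragm LECs (91.3 to 152), against 6.30 for heart BECs (3.49 to 9.70) and 4.87 for cardiomyocytes (1.60 to 9.93). For both genes the heart LEC libraries lay above every heart BEC library. The difference between heart LECs and heart BECs of the same mouse was 2.80 ± 0.55 log2 units for Sema3a and 3.64 ± 0.53 for Sema3d, in the same direction in 12 of 12 mice. Of 27759 genes compared, 1.65% were higher in heart LECs with no overlap between the libraries.

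Sema3g, an endothelial semaphorin known from arteries, had the opposite pattern. Its TPM ran from 17.0 to 49.6 in heart BECs (median 29.3) and from 5.21 to 12.3 in cardiomyocytes (median 9.18), while LECs had 0 to 13.6 in the heart (median 3.37) and 0 to 3.71 in the diaphragm (median 0.685). Heart BECs lay above every library of the other populations for this gene. Within mice, Sema3g was lower in heart LECs than in heart BECs in 12 of 12, with a log2 difference of -2.86 ± 1.22. The share of all genes lower in heart LECs with no overlap was 2.11%.

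The other ligands were low. Sema3b, known as a candidate tumour suppressor, was highest in cardiomyocytes, with a median of 10.3 TPM (4.23 to 17.6) against 2.09 and 1.71 in LECs of the heart and the diaphragm and 0.987 in heart BECs. Sema3c, needed for outflow tract septation in the embryo, also had its highest median in cardiomyocytes, 7.11 TPM (4.96 to 10.1), against 4.93, 3.04 and 3.04 in the same order. Populations next to each other in these orders overlapped for both genes. Cardiomyocytes were above heart BECs within the mouse in 12 of 12 mice for Sema3b (2.27 ± 0.67) and in 10 of 12 for Sema3c (0.91 ± 0.82). These cardiomyocytes were not sorted, and their fibroblast markers summed to a median of 4118 TPM against 736 in heart BECs. The part of other cells in these 2 differences was not tested. Sema3e was near the lower end of the scale in every population, with medians from 0.261 to 0.421 TPM and a single library above 2, diaphragm LECs of angII mouse 4 at 7.58 TPM, and passed the filter of 1 TPM in 3 libraries in diaphragm LECs but not in the other 3 populations.

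In heart BECs, the libraries with the most Sema3b and Sema3c were those with the most fibroblast transcripts. Mice 1, 2 and 3 had 14.7, 9.46 and 6.08 TPM of Sema3c and 3.87, 2.51 and 4.72 TPM of Sema3b. The summed TPM of 8 fibroblast markers was 4169, 2780 and 2606 in these libraries and 475 to 982 in the other 9. These mice belong to 3 treatment groups, and the part of fibroblast RNA in the 2 genes was not tested.

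**Figure D1:**
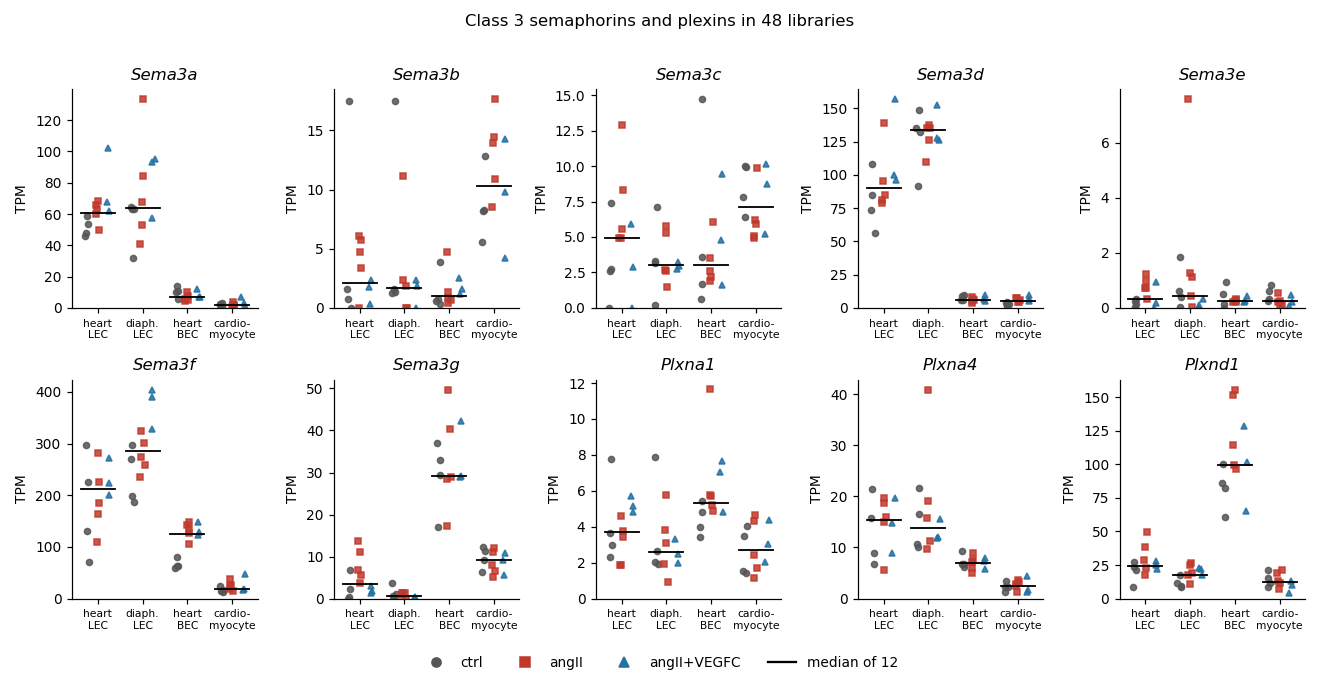
TPM of the 10 members in each library (points, coloured by treatment, with the median of the 12 libraries as a line), by cell population, on a linear axis that differs between genes. Sema3a and Sema3d libraries of heart LECs (lowest 45.9 and 56.4 TPM) sit above all heart BEC libraries, and Sema3g and Plxnd1 libraries of heart BECs sit above all heart LEC libraries.

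The ligands together made up a larger part of the LEC transcriptome than of the other populations. The summed TPM of the 7 semaphorins had a median of 508 for diaphragm LECs (352 to 627) and 383 for heart LECs (180 to 541), beside 178 for heart BECs (103 to 217) and 56.9 for cardiomyocytes (41.5 to 82.0). Sema3f took a median of 59.3%, 52.3%, 69.3% and 37.2% of that sum in the same order. Sema3d took 26.2% in diaphragm LECs and 25.5% in heart LECs against 4.36% in heart BECs, where Sema3g was second with 19.3%. In cardiomyocytes Sema3b was second with 19.2%.

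**Figure D2:**
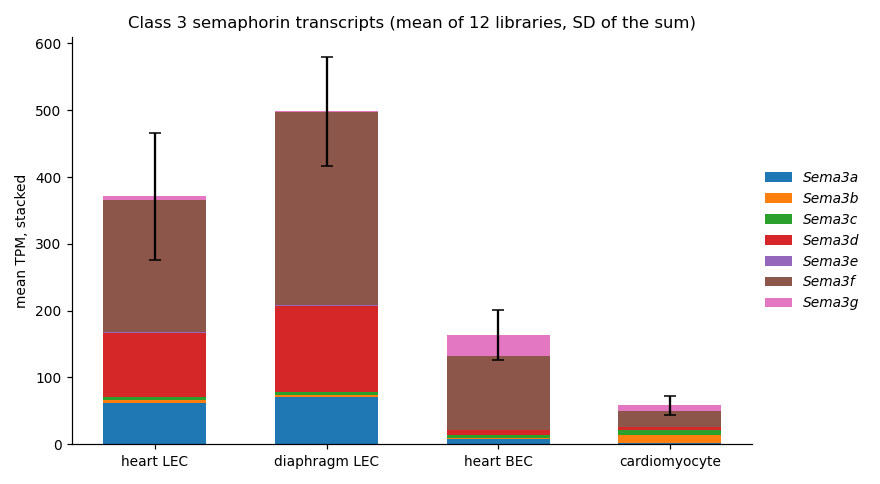
Mean TPM of each class 3 semaphorin, stacked, in the 12 libraries of each population, with the SD of the sum over libraries as error bar. Sema3f is the widest segment in all 4 bars, Sema3a and Sema3d fill most of the rest in LECs, and Sema3g does so in heart BECs.

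Among the plexins, Plxnd1 was the blood endothelial member. The receptor of Sema3e in growing vessels, it had a median of 99.8 TPM in heart BECs (61.0 to 156), while LECs had 24.4 in the heart (8.65 to 49.6) and 17.6 in the diaphragm (8.37 to 26.3) and cardiomyocytes 12.4 (4.23 to 21.4). No heart LEC library reached the lowest heart BEC library, and the difference within mice was -1.997 ± 0.56 log2 units, in 12 of 12 mice. Plxnd1 made up a median of 59.4% of the summed TPM of 9 plexins in heart BECs, against 28.4% and 22.3% in LECs of the heart and the diaphragm and 24.9% in cardiomyocytes.

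Plxna4, which transmits Sema3a signals in neurons, was higher in LECs. Its median was 15.4 TPM for heart LECs (5.50 to 21.4) and 13.7 for diaphragm LECs (9.74 to 40.8), beside 6.90 for heart BECs (5.08 to 9.39) and 2.37 for cardiomyocytes (1.22 to 4.44). The diaphragm LEC libraries did not overlap the heart BEC libraries, the heart LEC libraries did, and the difference between heart LECs and heart BECs was 0.84 ± 0.54 log2 units, in 12 of 12 mice. The share of all genes that separate diaphragm LECs from heart BECs was not computed, and these populations also differ in organ. Plxna1, a partner of neuropilin 1, was low throughout, with medians of 5.33 TPM in heart BECs, 3.69 in heart LECs, 2.73 in cardiomyocytes and 2.58 in diaphragm LECs that overlapped at each step.

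The mix of co-receptors differed between the vessel types in the same libraries. Nrp2 was a median of 93.0% of the neuropilin TPM in LECs of the diaphragm and 63.1% in those of the heart against 14.5% in heart BECs and 13.1% in cardiomyocytes, from Nrp1 medians of 13.6, 70.1, 736 and 110 TPM and Nrp2 medians of 187, 113, 124 and 16.8 TPM in that order. The share in heart LECs ran from 26.1% to 78.3%. Nrp2 overlapped between heart LECs (81.4 to 186 TPM) and heart BECs (76.5 to 156 TPM), so their shares differed through Nrp1. The heart LEC libraries of angII mice 14 and 15 had the most Nrp1 (359 and 236 TPM) and the most blood endothelial markers (8856 and 8191 TPM). The part of blood endothelial RNA in the share was not tested. Of the other plexins, Plxna2 (36.8 TPM in heart BECs, 17.7 in each LEC population, 5.03 in cardiomyocytes) and Plxnb2 (11.7 to 20.7) were expressed in all 4 populations, and the medians of Plxna3, Plxnb1, Plxnb3 and Plxnc1 were at most 2.92.

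**Figure D3:**
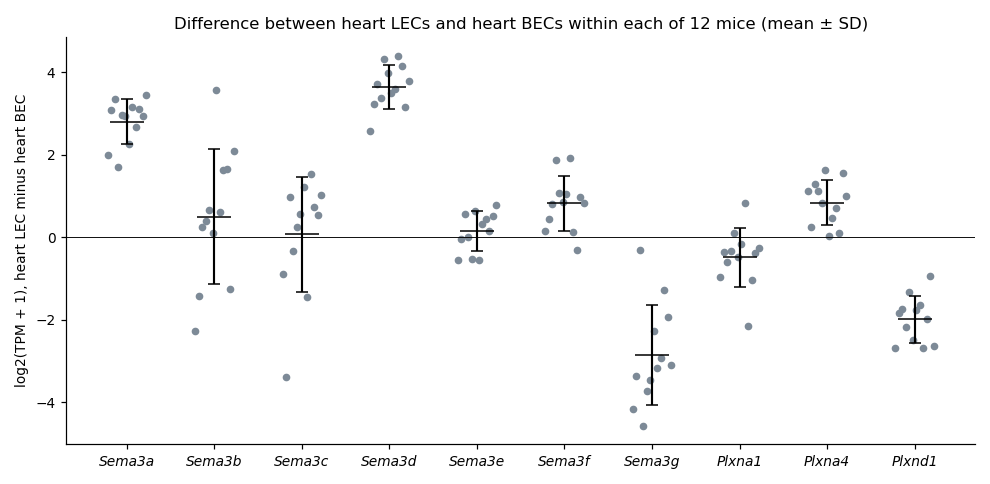
Difference in log2(TPM + 1) between heart LECs and heart BECs of the same mouse for each member (points, 12 mice), with mean and SD. All mice lie above 0 for Sema3a, Sema3d and Plxna4 and below 0 for Sema3g and Plxnd1.

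Heart and diaphragm LECs overlapped for every member. In 11 mice with both, Sema3d was lower in the heart in 10 (-0.51 ± 0.40 log2 units), Sema3f was lower in 9 (-0.61 ± 0.65), and Sema3g and Plxnd1 were higher in 9 each (1.16 ± 0.95 and 0.61 ± 0.76). In ctrl mice alone the Sema3g difference was 0.28. No member separated these populations without overlap, as did 0.24% of 28313 genes upward and 0.0954% downward. Cardiomyocytes lay below heart BECs without overlap for Sema3f, Sema3g, Plxna4 and Plxnd1, where 24.4% of 22246 genes did so, and no member lay above, as 3.65% of genes did.

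Treatment was compared within each population with limma on log2(TPM + 1), with age and, in endothelial cells, batch as covariates, and p-values adjusted by Benjamini-Hochberg over all genes tested. Of the 111 changes tested in members, 0 had an adjusted p under 0.05 in limma and 12 had an unadjusted p under 0.05, beside 7.61% of all gene tests in these 12 comparisons. In 9 of the 111 the libraries of the groups did not overlap, beside 1.68% to 14% of all genes, depending on the comparison. Sema3f in heart BECs had the smallest p-values of all members. The other changes with values below are those of the 12 and the 9.

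In heart BECs, Sema3f was about as high with angiotensin II alone as with both agents, and lower in ctrl mice. The ctrl libraries had 63.5, 81.0, 63.2 and 59.3 TPM, the angII libraries 105, 149, 136, 143 and 127 TPM, and the angII+VEGFC libraries 147, 128 and 123 TPM. Every treated library lay above every ctrl library, the highest ctrl library being that of mouse 5 and the lowest treated one that of mouse 3.

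The group means of Sema3f in heart BECs were 66.7 ± 9.68 TPM in ctrl (SD, n = 4), 132 ± 17.1 in angII (n = 5) and 133 ± 12.9 in angII+VEGFC (n = 3), a ratio of 1.97 for angII over ctrl and 1.99 for angII+VEGFC over ctrl. In limma, the log2 change was 0.97 (SE 0.13, unadjusted p = 9.20e-06, adjusted p = 0.196) for angII against ctrl and 0.99 (SE 0.16, unadjusted p = 3.07e-05, adjusted p = 0.218) for angII+VEGFC against ctrl. The first had rank 1 by unadjusted p among 21281 genes and the second rank 3, and neither passed the threshold. Both comparisons share the ctrl libraries. Within batch 1 the log2 differences in means were 1.01 and 1.01, and within batch 2 they were 0.95 and 0.95. For angII+VEGFC against angII the limma log2 change was 0.02 (SE 0.16, adjusted p = 1.00).

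Calls over all genes were rare in heart BECs, so the Sema3f values stand against a background of 0% of genes with an adjusted p under 0.05 in each of the 3 comparisons. By unadjusted p under 0.05, limma counted 1149 of 21281 genes for angII against ctrl, 551 for angII+VEGFC against angII and 1172 for angII+VEGFC against ctrl. Groups did not overlap for 1.88%, 2.08% and 4.93% of genes in that order, and of the members only Sema3f met this, for angII and for angII+VEGFC against ctrl. The call for angII against ctrl depended on the model: adjusted p was 0.0391 with no covariates, 0.0191 without ctrl mouse 5 and 0.0478 without angII mouse 3, and otherwise 0.0734 to 0.994, while the log2 change stayed between 0.87 and 1.08.

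Values of other transcripts in the same heart BEC libraries are given beside this. The summed TPM of 8 pericyte and smooth muscle markers was 160 to 301 with angII and 317 to 395 in ctrl mice (exact permutation p = 0.0159, 0.393 after adjustment over 132 library comparisons, two-sided) and 258 to 446 with angII+VEGFC. The 6 lymphatic markers summed to 260 to 376 with angII and 297 to 672 in ctrl mice. The blood endothelial markers summed to 14670 to 20124 in ctrl mice, 18894 to 23581 with angII and 20168 to 22614 with angII+VEGFC. Their ctrl and angII libraries overlapped (exact permutation p = 0.127, 0.419 after adjustment). With angII+VEGFC they lay above ctrl without overlap (exact permutation p = 0.0571, 0.419 after adjustment). Skeletal muscle markers did so too, at 48.9 to 60.5 against 18.3 to 40.7 TPM. Genes detected numbered 15076 to 18380 with angII and 15423 to 21913 in ctrl mice. The part of these transcripts in the Sema3f difference was not tested.

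Plxnd1, the other member with an unadjusted p under 0.05 in heart BECs, had 61.0, 100.4, 82.7 and 86.3 TPM in ctrl mice and 99.2, 152, 156, 96.7 and 114 TPM with angII. The groups overlapped through ctrl mouse 5. Its log2 change in limma was 0.55 (SE 0.22, adjusted p = 0.874), with 0.89 within batch 1 and 0.18 within batch 2. With angII+VEGFC, the 3 libraries had 102, 65.1 and 128 TPM. Sema3a, Sema3d and Sema3g in heart BECs had no unadjusted p under 0.05.

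**Figure D4:**
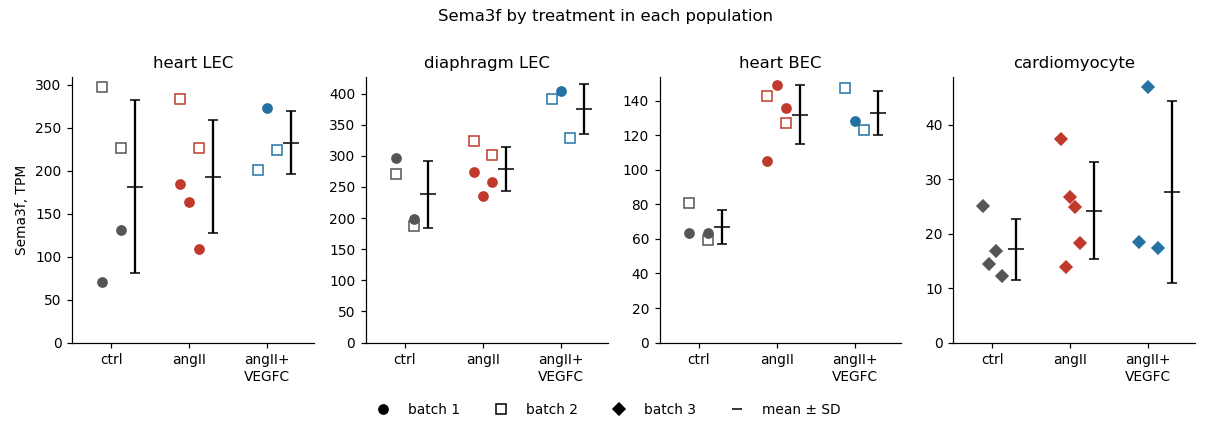
Sema3f TPM by treatment in each population, with 1 point per library, a marker for the sequencing batch, and the group mean ± SD beside the points. In heart BECs the 4 ctrl libraries lie between 59.3 and 81.0 TPM and the 8 treated libraries between 105 and 149 TPM.

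In diaphragm LECs, the highest Sema3f libraries were those with VEGFCc156s. The ctrl libraries had 297, 271, 198 and 187 TPM, the angII libraries 275, 235, 259, 325 and 301 TPM, and the angII+VEGFC libraries 391, 404 and 329 TPM. The angII+VEGFC group overlapped neither of the other groups.

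The log2 change of Sema3f in diaphragm LECs was 0.62 (SE 0.20, unadjusted p = 0.00732, limma adjusted p = 1.00) for angII+VEGFC against ctrl and 0.37 (SE 0.19, unadjusted p = 0.0743, adjusted p = 0.574) for angII+VEGFC against angII. Within batches 1 and 2 the first was 0.73 and 0.67 and the second 0.66 and 0.20, with 1 angII+VEGFC library in batch 1. By rank of unadjusted p the first was 27 of 23839 genes, and with any library left out it stayed between 0.51 and 0.76. In diaphragm LECs limma called 0% of genes in each of the 3 comparisons, with 3651 genes at an unadjusted p under 0.05 for angII against ctrl, 2094 for angII+VEGFC against angII and 314 for angII+VEGFC against ctrl. Groups did not overlap for 5.44%, 8.69% and 4.34% of genes.

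Plxnd1 in diaphragm LECs had 17.6, 9.31, 8.37 and 11.8 TPM in ctrl mice, 10.8, 25.4, 26.3, 17.5 and 18.9 TPM with angII and 21.9, 23.1 and 17.6 TPM with angII+VEGFC. The lowest angII+VEGFC library exceeded the highest ctrl library by a margin smaller than the rounding of these values. Limma gave a log2 change of 0.88 (SE 0.37, adjusted p = 1.00) for angII+VEGFC against ctrl and 0.68 (SE 0.31, adjusted p = 0.322) for angII against ctrl, and 0.35 for the latter without ctrl mouse 9, while the former stayed between 0.73 and 1.10 with any library left out. That is the library that stood apart. More genes reached 1 TPM with angII (20062 to 23691) than in ctrl (12924 to 18116) or angII+VEGFC mice (14963 to 18373), and the part of this in the changes was not tested.

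In heart LECs, Sema3g and Sema3c were the members with an unadjusted p under 0.05 for angII against ctrl, and neither passed after adjustment. Sema3g was at 0, 0.425, 6.85 and 2.35 TPM in ctrl mice, at 13.6, 5.69, 11.0, 6.74 and 3.82 TPM with angII and at 1.87, 1.27 and 2.92 TPM with angII+VEGFC. Sema3c was at 7.42, 2.61, 2.72 and 0 TPM in ctrl mice, at 12.9, 8.30, 4.90, 5.57 and 4.96 TPM with angII and at 0, 5.88 and 2.90 TPM with angII+VEGFC. For Sema3g, every angII library lay above the angII+VEGFC libraries, and 1 ctrl library lay among the angII ones. The ctrl and angII libraries of Sema3c overlapped as well.

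For angII against ctrl in heart LECs, the limma log2 change was 1.63 for Sema3g (SE 0.62, adjusted p = 0.371) and 1.41 for Sema3c (SE 0.51, adjusted p = 0.353). For angII+VEGFC against angII it was -1.15 for Sema3g (SE 0.74, adjusted p = 0.562) and -1.71 for Sema3c (SE 0.61, adjusted p = 0.416), both in comparisons that share the angII libraries with the former. Within batches 1 and 2, the angII against ctrl differences were 1.91 and 1.48 for Sema3g and 0.71 and 1.72 for Sema3c. Without angII mouse 3, the Sema3g change for angII+VEGFC against angII was -0.56.

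Blood endothelial transcripts were also highest with angII in these heart LEC libraries. All 7 blood endothelial markers were detected in heart LECs, and their summed TPM was 1965 to 3615 in ctrl mice, 3692 to 8856 with angII and 2470.9 to 2863 with angII+VEGFC (exact permutation p = 0.0159 for angII against ctrl, 0.393 after adjustment, two-sided). Nrp1, which is higher in BECs, had a limma log2 change of 1.51 (SE 0.42, adjusted p = 0.236) for angII against ctrl. Plxnd1, also higher in BECs, was at 8.65, 21.2, 23.5 and 27.1 TPM in ctrl mice and at 29.0, 22.6, 38.3, 49.6 and 17.4 TPM with angII. Genes detected numbered 19957 to 25896 with angII, 16131 to 24086 in ctrl mice and 16756 to 18884 with angII+VEGFC. Over all treatments, median Sema3g was 29.3 TPM in heart BECs and 3.37 in heart LECs, and median Sema3c was 3.04 and 4.93. The library of angII mouse 3 was the highest heart LEC library for Sema3g and Sema3c. It was also highest for pericyte and smooth muscle (862 TPM), mesothelium (195 TPM) and Schwann and neural markers (26.2 TPM). Its sums for blood endothelium, cardiomyocytes, fibroblasts, leukocytes and skeletal muscle lay within the range of the other libraries. Schwann and neural markers were lower with angII+VEGFC (0.0318 to 2.09 TPM) than with angII (2.86 to 26.2 TPM). The part of any of these transcripts in the Sema3g and Sema3c values was not tested.

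The remaining changes in heart LECs concerned Sema3a and Plxna1. Sema3a was at 45.9, 47.6, 53.7 and 58.7 TPM in ctrl mice, 65.6, 68.6, 49.7, 63.0 and 59.9 TPM with angII, and 67.8, 102 and 61.8 TPM with angII+VEGFC. The angII+VEGFC libraries lay above those of ctrl mice, with a limma log2 change of 0.59 (SE 0.25, adjusted p = 0.915), and 0.33 without angII+VEGFC mouse 6. Within batches 1 and 2 the difference was 1.03 and 0.29. Plxna1 was at 2.29, 3.63, 2.99 and 7.77 TPM in ctrl mice, 3.43, 1.85, 1.86, 3.76 and 4.59 TPM with angII, and 5.72, 5.17 and 4.80 TPM with angII+VEGFC. The angII+VEGFC libraries lay above those with angII, while the highest ctrl library lay above both groups. For angII+VEGFC against angII the log2 change was 0.55 (SE 0.57, limma adjusted p = 0.711), and 0.28 without angII+VEGFC mouse 6. Within batches 1 and 2 the difference was 0.90 and 0.27, with 1 angII+VEGFC library in batch 1.

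The background in heart LECs was 0.0261% of 26803 genes called for angII against ctrl (7 genes) and 0% for both comparisons with angII+VEGFC, while 2911, 2906 and 1325 genes had an unadjusted limma p under 0.05 for angII against ctrl, angII+VEGFC against angII and angII+VEGFC against ctrl. Groups did not overlap for 2.62%, 8.15% and 3.96% of genes. The median log2 change of all genes was 0.23, -0.37 and -0.13 in these comparisons, and that of the 9 members tested 0.33, -0.17 and 0.35. The median of all genes in diaphragm LECs was 0.28, -0.21 and 0.05, so fitted changes in LECs are to be read against these shifts.

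In cardiomyocytes, Sema3d was the member with an unadjusted p under 0.05. It was at 4.83, 3.86, 1.60 and 2.93 TPM in ctrl mice, at 4.77, 7.59, 4.56, 5.62 and 7.13 TPM with angII and at 9.93, 4.90 and 6.52 TPM with angII+VEGFC. The angII+VEGFC libraries lay above the ctrl libraries, and 2 angII libraries lay below the highest ctrl library. The limma log2 change was 0.72 (SE 0.27, adjusted p = 0.375) for angII against ctrl and 0.94 (SE 0.31, adjusted p = 0.198) for angII+VEGFC against ctrl, at ranks 730 and 680 of 15691 genes by unadjusted p. It was 0.42 for the former without ctrl mouse 9 and 0.58 for the latter without angII+VEGFC mouse 2.

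In these cardiomyocyte libraries, fibroblast and leukocyte markers were higher with angII than in ctrl mice without overlap. The remaining lists of other cells overlapped between these groups. Mean sums were lower with angII for pericytes and smooth muscle (1151 against 1405 TPM), Schwann and neural cells (20.1 against 29.9) and mesothelium (9.40 against 13.6). They were higher for lymphatic, blood and all endothelium and for skeletal muscle. The 8 fibroblast markers summed to 2497 to 3594 TPM in ctrl mice, 4068 to 5710 TPM with angII (exact permutation p = 0.0159, 0.393 after adjustment, two-sided) and 3441 to 6657 TPM with angII+VEGFC, which overlapped ctrl (p = 0.114, same exact test). The leukocyte markers summed to 415 to 548 TPM in ctrl mice, 580 to 1257 TPM with angII (exact permutation p = 0.0159, 0.393 after adjustment) and 627 to 1333 TPM with angII+VEGFC (exact permutation p = 0.0571, 0.419 after adjustment). The part of any of these lists in the Sema3d values was not tested. Limma called 0.0892% of 15691 genes for angII against ctrl (14 genes), 0% for angII+VEGFC against angII, and 0.663% for angII+VEGFC against ctrl (104 genes). The genes with an unadjusted p under 0.05 numbered 1545, 378 and 2017 in that order. Groups did not overlap for 5.67%, 1.68% and 14% of genes.

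**Figure D5:**
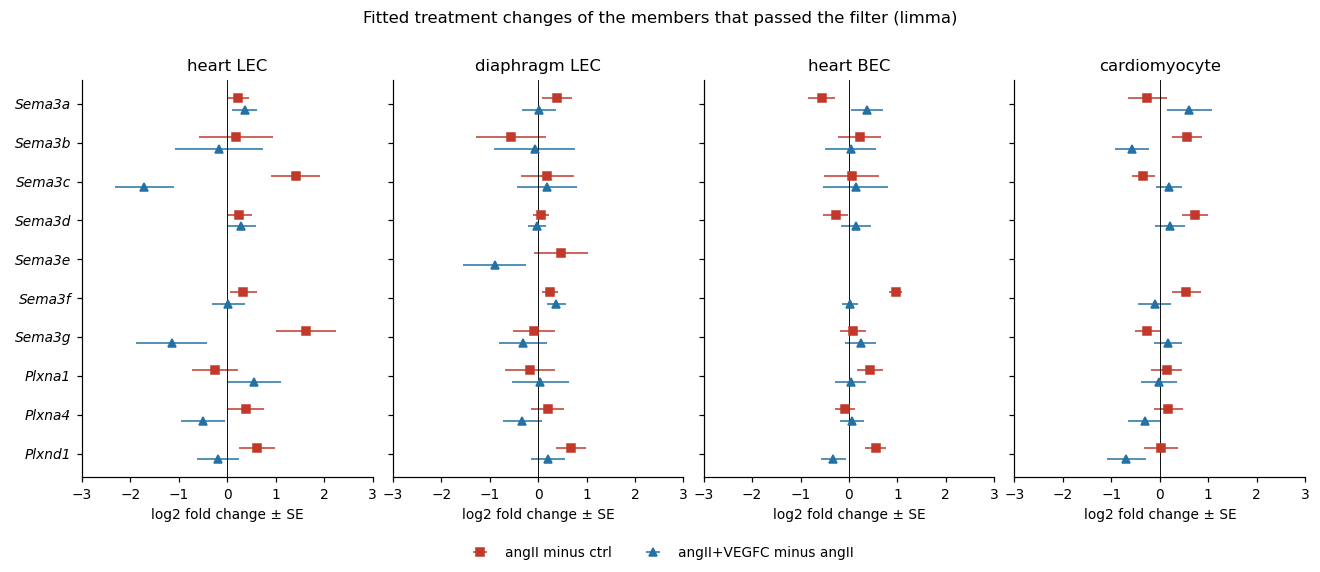
Fitted log2 fold change ± SE of each member for angII minus ctrl (squares) and angII+VEGFC minus angII (triangles) in each population, for the members that passed the filter. The angII change of Sema3f in heart BECs, 0.97, has the shortest bar relative to its size, and Sema3c and Sema3g in heart LECs lie farthest from 0.

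Whether the changes differed between endothelial populations was tested as an interaction over 36 libraries. This fit had no term for the mouse, so libraries of the same mouse were treated as independent. Of 90 member values in 9 comparisons, 0 had an adjusted p under 0.05 in limma and 8 had an unadjusted p under 0.05, beside 6.57% of all gene tests in these comparisons. Over all genes, 0.00691% were called for angII against ctrl between heart and diaphragm LECs (2 of 28938) and 0% in the other 8. For angII against ctrl, the Sema3f change in heart LECs minus that in heart BECs was -0.76 log2 units (SE 0.34, adjusted p = 0.646), and with diaphragm LECs in place of heart LECs it was -0.75 (SE 0.34, adjusted p = 0.402). The Sema3g change in heart LECs exceeded that in heart BECs by 1.63 (SE 0.60, adjusted p = 0.549) and that in diaphragm LECs by 1.75 (SE 0.61, adjusted p = 0.350). These differences therefore did not pass the threshold.

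The other genes of the pathway were counted in the same fits. Of the 13 other semaphorins (classes 4 to 7), the 6 other plexins, the 2 neuropilins and 31 partners, among them co-receptors, convertases and plexin effectors, 0 had an adjusted p under 0.05 in limma in any of the 12 comparisons, and the number with an unadjusted p under 0.05 per list and comparison was at most 5. Not all listed genes passed the filter, with 9 to 11 of the other semaphorins and 4 to 6 of the other plexins tested per population. The 5 were among 29 partners tested in cardiomyocytes for angII+VEGFC against ctrl. That comparison had the most genes with an unadjusted p under 0.05 in cardiomyocytes, and over all 12 comparisons 7.61% of gene tests did. The smallest unadjusted p-values among the partners were those of Rras and Dpysl3, a Ras-family GTPase and a collapsin response mediator, in cardiomyocytes for angII+VEGFC against ctrl. Their log2 changes were 0.53 (SE 0.17, adjusted p = 0.171) and 0.72 (SE 0.25, adjusted p = 0.214). In heart BECs for angII against ctrl, the smallest were those of Pcsk5, a proprotein convertase, at -0.64 (SE 0.21, adjusted p = 0.809) and Kdr, which encodes VEGFR2, at 0.39 (SE 0.14, adjusted p = 0.840).

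The genes most like each member over the 48 libraries were named by Pearson correlation of log2(TPM + 1) among 14328 genes, as a description. The points share 4 populations and mice, so the correlation follows mainly which population a gene is high in. They were Slc45a3 and Mmrn1 for Sema3d (r = 0.98 for each), Gpm6a and Arl4a for Sema3a (0.96 for each), Galnt18 and Pxn for Sema3f (0.96 for each), Aqp7 and Aplnr for Sema3g (0.96 for each), Arhgef15 and Itga6 for Plxnd1 (0.95 and 0.94) and Ugcg and Hjurp for Plxna4 (0.92 for each). For Sema3b, Sema3c and Plxna1 the highest values were lower, with Lpxn and Calhm5 (0.80 and 0.79), Errfi1 and Cdh19 (0.73 for each), and Spred1 and Fzd8 (0.81 for each). Those for Sema3e were Slc6a4 and Dpep2nb (0.84 and 0.82), with a single Sema3e library above 2 TPM. Among the members, Sema3a and Sema3d were the most alike (r = 0.94), and Sema3d and Sema3g the most opposed (r = -0.78).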

How the data were processed

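RNA from sorted endothelial cells and from cardiomyocytes was amplified with a low-input SMART-Seq kit. Per the labels, the authors aligned reads with STAR 2.5.3a, quantified with Salmon 0.12.0 on GRCm38 and deposited one TPM table, a per-length abundance relative to the library total that keeps no read counts, so no counting interval was given. The members and lists were chosen with earlier results of these data known, and no record says which values chose them.

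Values were transformed to log2(TPM + 1). Genes that reached 1 TPM in 3 or more of the 12 libraries of a population were fitted with limma 3.58.1 (R 4.3.3, trended variance) on all 3 groups, with age and batch (endothelial) or age (cardiomyocyte) as covariates, at a threshold of 0.05. The interaction fit used 36 endothelial libraries, with age and batch as covariates and no mouse block. Labelled ages are in months, while the methods of the study give weeks, and the labels were used. Replicates are different mice. Libraries with 1 mouse number came from the same animal, and the correlation within mice was 0.135 in the alternative fit with the mouse as a random block. Members with an unadjusted p under 0.05 or no overlap were given in full, and the other members by range. Of the partner list, the genes with the smallest unadjusted p were named. Library measures were compared by exact permutation tests in Python 3.11.15 (scipy 1.17.1). Alternatives were a pseudocount of 0.1, no filter, no covariates, quantile normalization, the 2 groups alone, the number of genes at 1 TPM as a covariate, 1 surrogate variable and each library left out. The code was tested on simulated data.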

Additional observations from a re-analysis of the deposited data

Results flagged for a closer look

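Of 72 groups of 4 or 5 libraries, 12 held a member value that stood far from the rest of its group by Dixon's ratio. The ratio flags about 1 in 20 groups by chance when values are normal and independent. TPM values near 0 need not be normal and the groups share mice, so the 12 cannot be set against that rate. Sema3b accounts for 5 of the 12. In ctrl mouse 9 it was at 17.5 TPM in heart LECs (others 0 to 1.63) and at 17.5 TPM in diaphragm LECs (others 1.29 to 1.60), in angII mouse 18 at 11.1 TPM in diaphragm LECs (others 0 to 2.33), and in heart BECs of ctrl mouse 1 and angII mouse 3 at 3.87 and 4.72 TPM (others 0.367 to 0.727 and 0.427 to 1.37).

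The diaphragm LEC library of ctrl mouse 9 was also low for Sema3a, at 32.2 TPM against 62.9 to 64.8 TPM. The same population held a high Sema3e value of 7.58 TPM in angII mouse 4 (others 0.0530 to 1.26) and a high Plxna1 value of 7.88 TPM in ctrl mouse 1 (others 1.95 to 2.66). Groups were tested where the population mean was 1 TPM or more. Sema3e in diaphragm LECs met this only through the library of angII mouse 4, so its flag was favoured by the rule. In heart BECs, Plxna1 was at 11.7 TPM in angII mouse 12 (others 4.88 to 5.79) and Plxna4 at 9.39 TPM in ctrl mouse 1 (others 6.25 to 6.69). Sema3d was at 139 TPM in heart LECs of angII mouse 12 (others 78.6 to 95.6), and Sema3c at 9.84 TPM in cardiomyocytes of angII mouse 3 (others 4.96 to 6.204).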

How the results depend on the processing

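No member had an adjusted p under 0.05 in 11 of the 12 treatment comparisons under any of 7 other settings or with any of 12 libraries left out in turn. In heart BECs for angII against ctrl the count was 0, became 1 (Sema3f) with no covariates, and ran from 0 to 1 with libraries left out, being 1 without ctrl mouse 5 or angII mouse 3. The cause was not tested. In the interaction fits the count of members was 0 in all 9 comparisons, also with the mouse as a fixed or random replicate block, although calls over all genes for angII against ctrl between heart and diaphragm LECs went from 2 to 7 with either block, and for angII+VEGFC against ctrl from 0 to 3 with the random one. All 15 treatment changes given in full kept their sign. With a pseudocount of 0.1, the heart LEC changes grew to 2.47 for Sema3c and 2.68 for Sema3g (angII against ctrl) and to -3.22 for Sema3c (angII+VEGFC against angII). Of the 96 other member changes, 29 turned sign with the number of genes at 1 TPM as a covariate, 14 with quantile normalization and 10 with no covariates. Counts over all genes depended on the setting, from 0 to 31 in heart LECs (7) and from 0 to 473 in cardiomyocytes (14) for angII against ctrl, from 0 to 852 in cardiomyocytes (104) for angII+VEGFC against ctrl, and from 0 to 520 in diaphragm LECs (0) for angII against ctrl. Quantile normalization reduced the cardiomyocyte minus heart BEC difference to -1.48 for Sema3f, -0.94 for Sema3g and -0.71 for Plxna4, and raised it to 1.45 for Sema3c. In ctrl mice alone the heart LEC minus heart BEC difference of Sema3f was 1.24. Depth is unknown, so low members such as Sema3e cannot be told from absent ones.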
